A study of Mus musculus with 9 samples.

Results

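DNA is damaged throughout the life of a cell, and the genes described here encode the machinery that finds and mends the lesions. The group holds 46 mouse genes of DNA damage signalling and repair, chosen by name from a list and read from the array probes that carry those names, with 1 probe per gene (the one with the highest mean signal over all arrays). All 46 were found among 36406 named features on the array, of which 28375 entered the test. The probe of every member was well above background on 9 of 9 arrays, so none was lost to the filter on dim probes. The members were sorted by role into 11 genes of homologous recombination, 9 of the Fanconi pathway, 4 of mismatch repair, 7 of excision and single-strand break repair, 5 of end joining and 10 of damage signalling.

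Homologous recombination copies the missing sequence from the sister chromatid and is used mostly by cells that have replicated their DNA. End joining ligates broken ends directly and works in resting cells too, which matters for satellite cells, since these muscle stem cells are mostly quiescent in the adult. Fanconi proteins unhook crosslinked strands, mismatch repair corrects copying errors, and excision repair removes damaged bases or short stretches of a strand. Bmi1 is a Polycomb group protein known for repressing the Cdkn2a locus, and it is also known to take part in the response to DNA breaks.

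The study compared satellite cells of Bmi1-deficient mice (KO) with those of wild type mice (WT), both of the FVB strain background, labelled male and aged 2 months. The sources used here give neither the mutant allele nor the number of animals behind a sample. Cells were sorted for integrin alpha-7 and CD34 and against CD31, CD45, CD11b and Sca1, and their RNA was amplified before labelling. There were 3 WT arrays and 6 KO arrays. KO arrays with the same leading number in their descriptions correlated at 0.996 to 0.997 over probes, against 0.973 to 0.986 for the other 33 pairs, and their log2 values scattered with an SD of 0.135 to 0.157 per array, against 0.0889 to 0.121 between repeat spots of 1 array. Each such pair was averaged, which left 3 KO samples against 3 WT samples. The titles call each of the 3 WT and 6 KO arrays a biological replicate, so the averaging rests on the description numbers and these values. The labels do not say that each array or sample came from its own animal. The p-values therefore measure the spread between these averaged samples.

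Levels are given as the log2 of the background-subtracted signal minus the array's 75th percentile, so a level of 0 is that percentile, and levels of different probes are not compared. Well above background were 71.9% to 75.8% of spots per array. The Bmi1 probe did not separate the groups (0.49 ± 0.11, SD, n = 3, for WT and 0.59 ± 0.12, SD, n = 3, for KO), and the sources used here do not say whether it lies in the deleted part. Cdkn2a, the locus named above, was 3.28 higher in KO on the log2 scale (limma adjusted p = 0.0157). One KO array (array 1, in KO sample 1) carries a wild type entry in its genotype field against a KO title and source, and without it the members' median difference was -0.28 against -0.29 with it. All of the 10 satellite cell markers were well above background on 9 of 9 arrays, and the median of their KO minus WT differences was 0.09.

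Of the 46 members, 41 had a lower mean in KO and 5 a higher one, and the median difference was -0.29 on the log2 scale. Over all features tested the mean was lower for 52.8% and the median difference was -0.02. None of the members passed limma's test at an adjusted p of 0.05 over all features, where 40 features did (0.141%), and the smallest adjusted p of a member was 0.253. At an unadjusted p of 0.05, 8 members passed (H2afx, Msh6, Rad54l, Parp1, Fancd2, Mdc1, Fancb and Chek2), all lower in KO, against 4.21% of all features in that direction. The 3 KO samples lay entirely below the 3 WT samples for 13 members, against 8.09% of all features, and entirely above them for 1 member, against 8.62%. For each of those 14 genes an exact permutation test (two-sided, over samples) gives p = 0.1, the smallest that 3 against 3 samples allow. Full separation fixes this value, so it adds no further support.

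**Figure D1:**
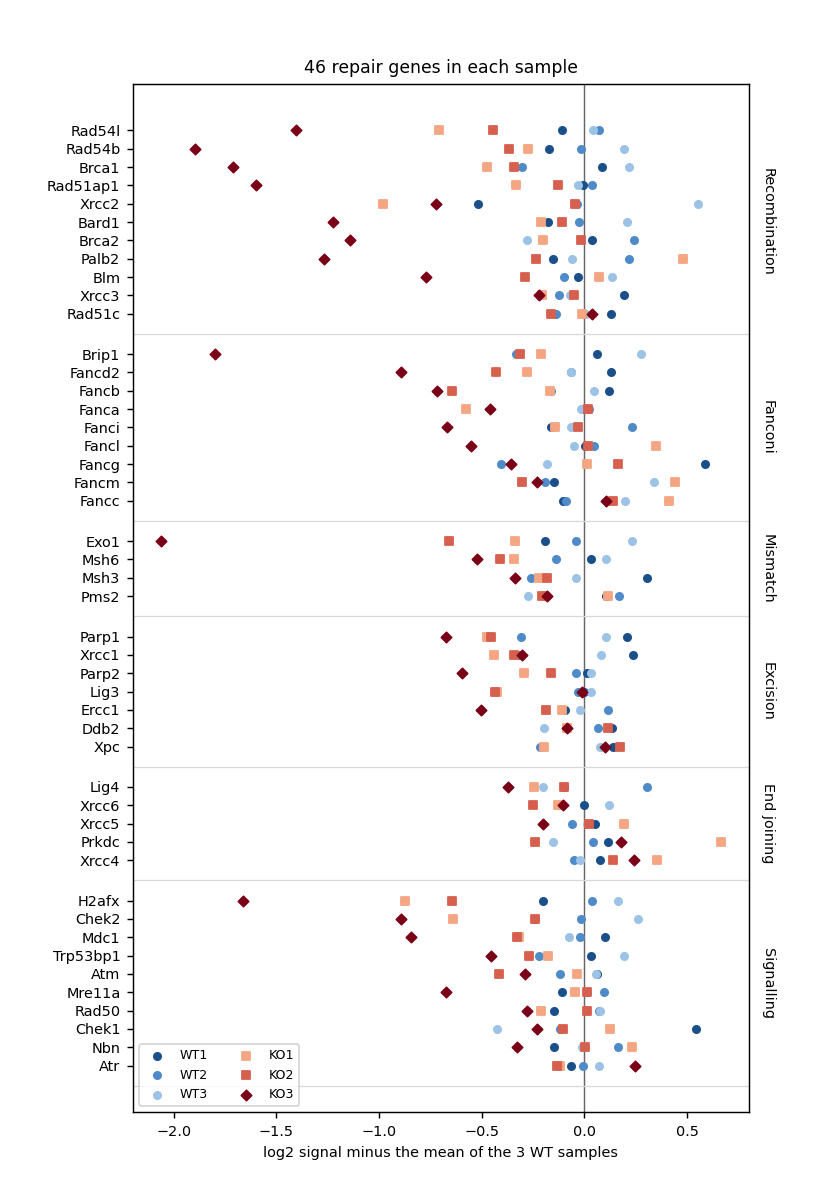
Level of each of the 46 genes in each sample, as the log2 signal minus the mean of the 3 WT samples, with genes grouped by role. KO sample 3 (dark diamonds) is far to the left for most recombination genes and for Exo1, Brip1 and H2afx, while KO samples 1 and 2 (squares) stay closer to the WT samples (circles).

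The 3 KO samples did not contribute alike. KO sample 3 was the lowest of all 6 samples for 29 members (63.0%), which holds for 16.3% of all features tested. The median member lay 0.20 below the WT mean in KO sample 1, 0.18 below it in KO sample 2 and 0.48 below it in KO sample 3. Both arrays of KO sample 3 were low for the 6 genes plotted array by array. Without this sample the members' median difference was -0.17 and 35 of 46 were lower, so the size of the shift rests in good part on it. The arrays were on 2 slides, and within slide 1 the median was -0.29 (39 lower), within slide 2, which holds 1 WT sample, -0.27 (35 lower), and with slide as a block -0.29 (39 lower). In a sorted population, fewer cells that carry a transcript and less transcript per cell cannot be told apart.

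Among the recombination genes, which prepare resected DNA and carry out strand exchange, 11 of 11 had a lower mean in KO, with a median difference of -0.52. The direction of Rad51c turned in the authors' deposited table (0.02), and none of the 11 passed the test. The median was -0.16, with 10 of 11 lower, when KO sample 3 was left out. Brca1, Rad54l, Rad54b and Rad51ap1 separated the groups in every sample.

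Rad54l, a motor protein that remodels DNA during strand exchange, read 0.46, 0.64 and 0.61 in the 3 WT samples and -0.14, 0.12 and -0.84 in the 3 KO samples. Every KO sample was below every WT sample, with a gap between KO sample 2 and the lowest WT sample that was wider than the WT spread. The difference was -0.85 (SE 0.26, 95% interval -1.48 to -0.22, limma adjusted p = 0.304), and it was -0.58 without KO sample 3. Within slide 1 it was -0.78 and within slide 2 it was -0.96.

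Brca1, which promotes end resection, and Rad54b, a relative of Rad54l, were read by probes that cross at least 1 exon junction, since their 60 bases span 4037 and 6403 bases of the genome. Their sequences are shown because they tie both values to spliced transcripts. In the coordinates of the array design (mm9), the Brca1 probe lies at chr11:101359283-101363319 on the minus strand and the Rad54b probe at chr4:11490589-11496991 on the plus strand.
Brca1 probe: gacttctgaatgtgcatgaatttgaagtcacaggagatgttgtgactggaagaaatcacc
Rad54b probe: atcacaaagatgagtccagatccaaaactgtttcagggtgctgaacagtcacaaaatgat

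Brca1 read -0.28, -0.67 and -0.15 in WT and -0.84, -0.71 and -2.07 in KO. KO sample 2 was only just below WT sample 2, and KO sample 3 stood well apart from all others. The difference was -0.84 (SE 0.39, limma adjusted p = 0.513) and -0.41 without KO sample 3.

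Rad54b read 0.29, 0.44 and 0.65 in WT and 0.19, 0.09 and -1.43 in KO. KO samples 1 and 2 were close below the lowest WT sample. The difference was -0.85 (SE 0.45, limma adjusted p = 0.581) and -0.32 without KO sample 3, and a separate Rad54b probe also gave -0.85. Rad51ap1, which stimulates strand exchange, read -1.14, -1.10 and -1.16 in WT and -1.47, -1.26 and -2.73 in KO, a difference of -0.69 (limma adjusted p = 0.604). The WT values of Rad51ap1 were nearly identical, and without KO sample 3 its difference was -0.23.

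At the other end, Rad51c, which also acts in strand exchange, differed by -0.05 with a 95% interval of -0.37 to 0.27, so its groups were within their spread. The only Rad51c probe opens with a short simple repeat and had a mean level of 6.73 in WT. Whether this probe reads Rad51c alone was not tested. The differences of the remaining 6 recombination genes ran from -0.58 to -0.16, and their samples overlapped. Xrcc2, at -0.58, is the only member whose probes differ in sign, since a separate probe gave 0.30.

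**Figure D2:**
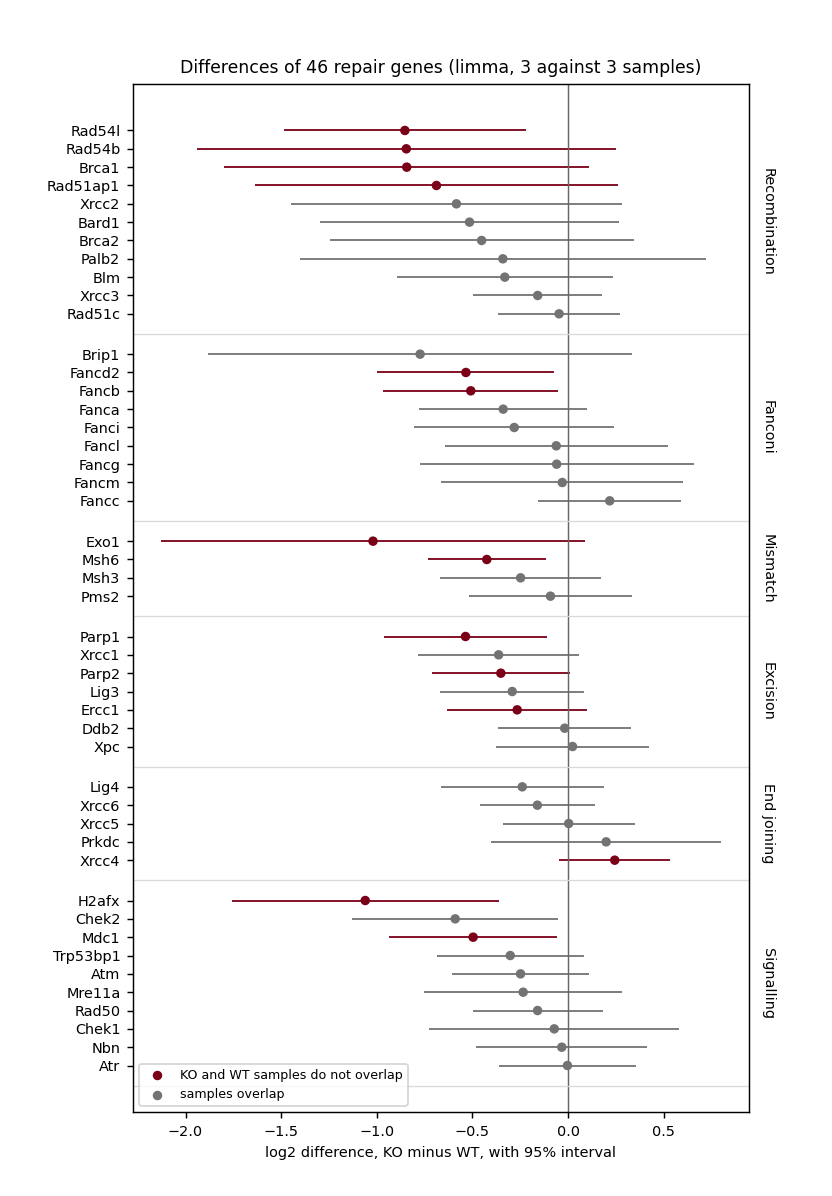
Difference of each member between KO and WT on the log2 scale, with its 95% interval from limma, n = 3 samples per group, grouped by role. Dark red marks the 14 genes whose KO and WT samples do not overlap, and the end joining genes lie around 0 while the recombination genes lie to its left (Rad51c turned to 0.02 in the authors' deposited table).

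In the Fanconi pathway 8 of 9 members had a lower mean in KO, with a median difference of -0.28, and none passed the test. Leaving out KO sample 3 gave a median of -0.09 with 5 of 9 lower. Fancd2, which is ubiquitinated at crosslinks together with Fanci, and Fancb, a subunit of the ligase complex that does this, separated the groups.

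Fancd2 read -3.02, -3.21 and -3.21 in WT and -3.43, -3.58 and -4.04 in KO. The 3 KO samples were spread below a tight WT group. The difference was -0.53 (SE 0.19, limma adjusted p = 0.386), -0.51 within slide 1 and -0.52 within slide 2, and -0.35 without KO sample 3. Its size changed with processing, to -0.35 with normexp background correction, -0.39 in the authors' deposited table and -0.62 with quantile normalization. Fancb read -1.24, -1.52 and -1.31 in WT and -1.52, -2.00 and -2.07 in KO, a difference of -0.51 (SE 0.19, limma adjusted p = 0.405). KO sample 1 and WT sample 2 were all but level for Fancb. Of the arrays of KO sample 1, 1 read -1.45 for Fancb, inside the WT range.

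Brip1, a helicase that binds Brca1, had the largest difference of the class (-0.77, SE 0.45, limma adjusted p = 0.622) but its groups overlapped. It read 1.58, 1.19 and 1.79 in WT and 1.31, 1.21 and -0.28 in KO, so that KO samples 1 and 2 lay within the WT range. Its difference was -0.26 without that sample. Fancm, the motor that anchors the ligase complex on DNA, differed by -0.03 (95% interval -0.66 to 0.60), and it turned to 0.02 with slide as a block. Fancc, a further subunit of that complex, was the 1 member of the class with a higher mean in KO, by 0.22, and is named after its value was seen. Fanca was read by a pair of probes that differed by -0.34 and -1.48, the second designed on a separate transcript. The remaining 3 members of the pathway, Fanci, Fancl and Fancg, ran from -0.28 to -0.06.

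All 4 mismatch repair members had a lower mean in KO, with a median difference of -0.34 (range over the members -1.02 to -0.09), and none passed the test. Msh6, which detects mismatched bases, read 1.15, 0.97 and 1.22 in WT and 0.77, 0.70 and 0.59 in KO. The 3 KO samples of Msh6 were close together and all below WT, and KO sample 3 did not stand apart. The difference was -0.42 (SE 0.13, 95% interval -0.73 to -0.12, limma adjusted p = 0.292), and -0.38 without KO sample 3. Within slide 1 it was -0.48 and within slide 2 it was -0.30.

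Exo1, an exonuclease that removes the mismatched strand and also resects DNA breaks, read -0.33, -0.18 and 0.09 in WT and -0.48, -0.80 and -2.20 in KO. Every KO sample was lower, and KO sample 3 was lower by far. Its difference of -1.02 (SE 0.45, limma adjusted p = 0.493) was the largest of the class and was -0.50 without KO sample 3. Pms2, the endonuclease of the pathway, differed by -0.09 (95% interval -0.52 to 0.33), and within slide 1 it was 0.01. Msh3, which detects small loops of unpaired bases, differed by -0.25 with samples that overlapped.

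**Figure D3:**
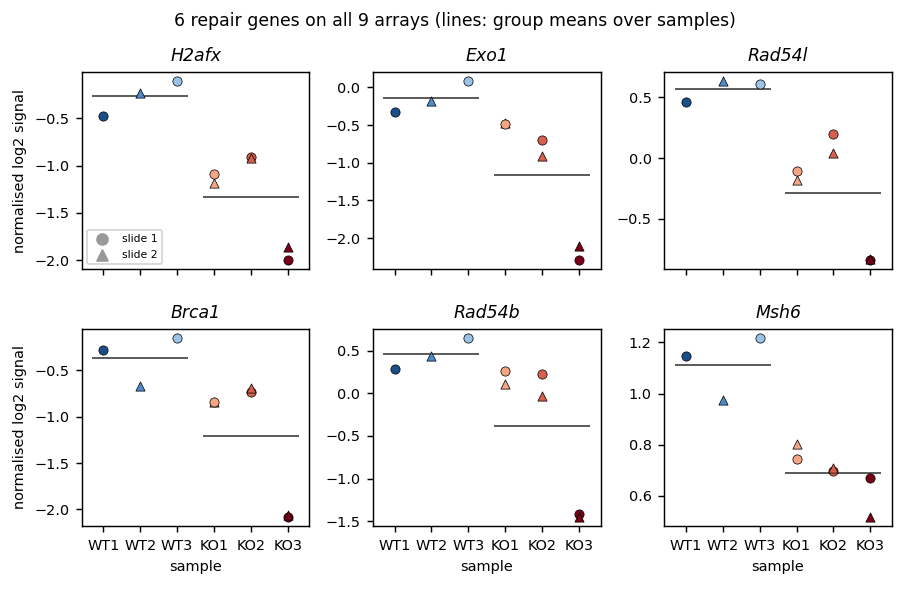
Normalised log2 signal of H2afx, Exo1, Rad54l, Brca1, Rad54b and Msh6 on each of the 9 arrays, arranged by sample, with circles for slide 1, triangles for slide 2 and lines at the group means over samples. The 2 arrays of a KO sample lie close together, and in every panel except that of Msh6 both arrays of KO sample 3 lie far below the rest.

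In excision and single-strand break repair 6 of 7 members had a lower mean in KO, with a median difference of -0.29, and none passed the test. Without KO sample 3 the median was -0.23 with 6 of 7 lower. Parp1 and Parp2, which sense strand breaks and build poly(ADP-ribose) chains there, and Ercc1, a subunit of the nuclease that cuts beside a lesion, separated the groups.

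The Parp1 probe also crosses an exon junction (60 bases over 299 bases of the genome, mm9 chr1:182530341-182530639, plus strand) and is shown because Parp1 had the largest difference of the class.
Parp1 probe: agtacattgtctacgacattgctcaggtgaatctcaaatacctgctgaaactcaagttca
Parp1 read 1.34, 0.83 and 1.24 in WT and 0.66, 0.68 and 0.46 in KO. The KO samples were close together, and WT sample 2 was the nearest to them. The difference was -0.54 (SE 0.17, limma adjusted p = 0.341) and -0.47 without KO sample 3. It was -0.65 within slide 1 and -0.26 within slide 2, where WT sample 2 is the only WT sample.

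Parp2 read -0.50, -0.56 and -0.48 in WT and -0.81, -0.68 and -1.11 in KO, a difference of -0.35 (SE 0.15, limma adjusted p = 0.467). Ercc1 read 1.13, 1.34 and 1.20 in WT and 1.11, 1.04 and 0.72 in KO, a difference of -0.27 (limma adjusted p = 0.605), with KO sample 1 just under the lowest WT sample. Of the arrays of KO sample 1, 1 read 1.14 for Ercc1, above WT sample 1. Without KO sample 3 the difference was -0.23 for Parp2 and -0.15 for Ercc1. Ddb2, a sensor of ultraviolet lesions, differed by -0.02 (95% interval -0.37 to 0.33) and its direction turned with quantile normalization (0.0028). The remaining 3 members ran from -0.36 to 0.02. The higher mean in KO (0.02) belonged to Xpc, which recognises distorted DNA and is named after its value was seen.

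The end joining genes were divided. Means were lower in KO for 2 of 5 (Lig4 and Xrcc6) and higher for 3, the differences ran from -0.24 to 0.24, the median was 0.00, and none passed the test. Xrcc4, the partner of DNA ligase IV, was the only member with all KO samples above all WT samples. It read -4.18, -4.30 and -4.28 in WT and -3.90, -4.11 and -4.01 in KO. The difference was 0.24 (SE 0.12, 95% interval -0.05 to 0.53, limma adjusted p = 0.536). The KO values are means of 2 arrays each, and the arrays of KO sample 3 read -4.30 and -3.73, so that 1 of them lay in the WT range. The difference was 0.09 with normexp background correction, 0.08 in the authors' deposited table, 0.15 with quantile normalization, 0.09 within slide 1 and 0.42 within slide 2. Xrcc5, the larger Ku subunit that binds DNA ends, differed by 0.00 (95% interval -0.34 to 0.35). Prkdc, the kinase recruited by Ku, differed by 0.20 (limma adjusted p = 0.843) and is named after its value was seen.

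In damage signalling 10 of 10 members had a lower mean in KO, with a median difference of -0.24, although Atr turned to 0.02 with quantile normalization. None passed the test. The median was -0.18 with 8 of 10 lower after KO sample 3 was left out. H2afx, the histone variant that is phosphorylated beside breaks, had the largest difference and the smallest p of the 46 members.

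H2afx read -0.47, -0.23 and -0.10 in WT and -1.14, -0.91 and -1.93 in KO. Every KO sample was below every WT sample by more than the whole WT range. The KO mean was 2.09-fold lower, a log2 difference of -1.06 (SE 0.29, 95% interval -1.76 to -0.36, limma unadjusted p = 0.00979, adjusted p = 0.253). It was -0.76 without KO sample 3, -1.05 within slide 1 and -1.09 within slide 2.

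Mdc1, the adaptor that binds phosphorylated H2afx, read -0.03, -0.15 and -0.21 in WT and -0.45, -0.46 and -0.97 in KO. Again no KO sample reached the WT range, and the difference was -0.50 (SE 0.18, limma adjusted p = 0.398), or -0.32 without KO sample 3. Chek2, the checkpoint kinase activated by Atm, differed by -0.59 (unadjusted p = 0.0361 and adjusted p = 0.41, limma) with samples that overlapped, and is named after its value was seen. Atr, the kinase that senses stalled replication, differed by less than 0.01 in size, with a 95% interval of -0.36 to 0.36. The remaining 6 signalling members ran from -0.30 to -0.03.

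A further split followed known cell cycle behaviour rather than pathway. Its lists were written with earlier results of these data known, so the contrast only describes these samples. Of the members, 17 are known from textbook knowledge to peak when cells replicate or divide (Brca1, Brca2, Rad54l, Rad54b, Rad51ap1, Xrcc2, Blm, Bard1, Fanca, Fancb, Fancd2, Fanci, Brip1, Msh6, Exo1, Chek1 and H2afx). All 17 had a lower mean in KO, with a median difference of -0.53, while 24 of the other 29 were lower with a median of -0.16. Without KO sample 3 the medians were -0.32 and -0.10. Over all features the mean was lower for 52.8%, with a median of -0.02. Groups did not overlap for 9 of the 17 (52.9%) and for 5 of the 29 (17.2%). In either direction this held for 16.7% of all features, so the second share is near that of all features. Of those 5 genes, 4 were lower in KO and 1 higher, against 8.09% and 8.62% of all features. A list of 23 replication and mitosis genes that holds no member, such as Mki67, Top2a and Mcm5, was lower for 23 of 23 with a median of -0.82, and none of these passed the test either. In that list the per-sample medians against the WT mean were -0.39 in KO sample 1, -0.46 in KO sample 2 and -1.65 in KO sample 3, and its summed signal ran from 122 to 146 in WT and from 51.5 to 97.1 in KO. The part of cycling cells in the members' differences was not tested.

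**Figure D4:**
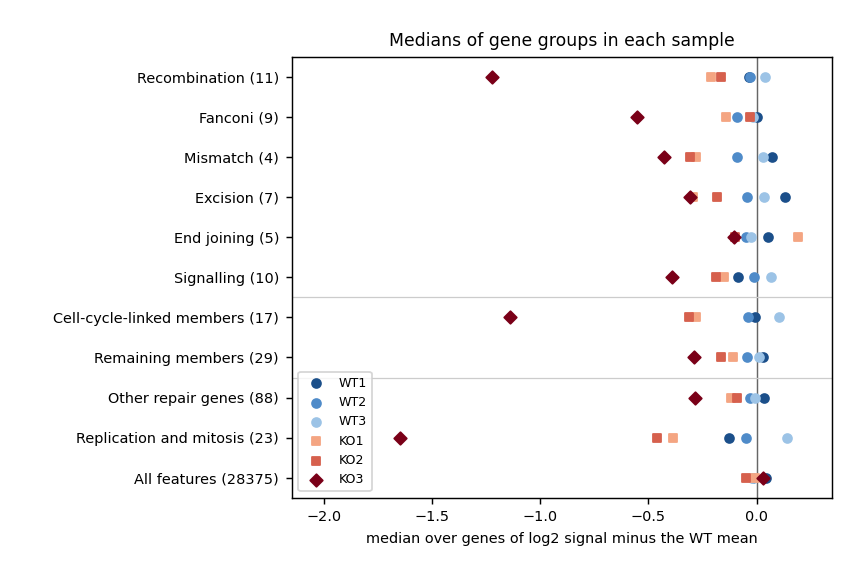
Median over the genes of each group of the log2 signal minus the WT mean, 1 point per sample, with the number of genes in brackets. KO sample 3 lies lowest for recombination genes (-1.22), for cell-cycle-linked members (-1.14) and for replication and mitosis genes (-1.65), while all samples lie near 0 over all features.

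The other repair genes gave a wider view of the same pathways. Of 92 listed genes that are no members, 89 were found under these names and 88 tested, of which 67 had a lower mean in KO, with a median of -0.13. With KO sample 3 left out, 57 were lower and the median was -0.06. None passed the test. At an unadjusted p under 0.05 by limma there were 7 (7.95%), 4 of them lower in KO, a smaller share than the 11.0% of all features in either direction. Of 16 other recombination genes 14 were lower, of 6 other Fanconi genes 4, of 3 other mismatch genes 1, of 28 other excision genes 20, of 5 other end joining genes 4, of 18 other signalling genes 14 and of 12 damage bypass genes 10.

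The smallest p in the lower direction belonged to Fam175a, the scaffold of the Brca1 A complex, at -0.86 (limma adjusted p = 0.139). It read -0.58, -0.29 and -0.21 in WT and -1.13, -1.45 and -1.06 in KO, so it separated the groups without KO sample 3 standing apart. Next were the polymerases of end joining Poll (-0.70, adjusted p = 0.165) and Polq (-0.85, adjusted p = 0.35). In the higher direction, Wee1, the kinase that holds cells before mitosis, read 0.25, 0.88 and 0.25 in WT and 1.22, 1.21 and 1.21 in KO, a difference of 0.76 (limma adjusted p = 0.246). Ercc6, of transcription-coupled repair, and Rad17, a checkpoint clamp loader, differed by 0.42 (adjusted p = 0.326) and 0.51 (adjusted p = 0.439).

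Most endothelial, mural, mesenchymal and glial markers had higher means in KO, while most myeloid and lymphoid markers did not. All 8 endothelial and all 8 mural markers had higher means in KO, with medians of 1.20 and 0.48, and 6 of 8 mesenchymal and 5 of 7 tested glial markers did so, with medians of 0.91 and 0.76. Only Pdgfrb, a mural receptor, passed the test (1.35, limma adjusted p = 0.0377). The summed signal of the endothelial list ran from 3.76 to 4.96 in WT and from 4.97 to 7.09 in KO, that of the mesenchymal list from 103 to 112 and from 123 to 131, that of the mural list from 53.3 to 59.6 and from 63.8 to 68.0, and that of the glial list from 43.3 to 50.6 and from 48.3 to 51.1. The myeloid and lymphoid list, at 123 to 143 in WT and 120.4 to 133 in KO, had a median of -0.04, and the satellite list ran from 65.7 to 71.7 and from 73.5 to 79.6. Itgam (mean level 7.02 in WT and 6.94 in KO) makes up most of the myeloid and lymphoid sum. Likewise Col3a1 (6.21 and 6.24) makes up most of the mesenchymal sum and Tek (1.67 and 1.84) most of the endothelial one. Pdgfra, named after its value was seen, had the largest difference of the mesenchymal list (2.93, limma adjusted p = 0.099). Thy1 (-0.18) and Dpt (-0.01) of that list were lower in KO. So were Ncam1 (-0.44) and Ngfr (-0.35) of the glial list, with all KO samples of Ncam1 below all WT samples. Cd68 (0.45) was the 1 of 6 tested myeloid and lymphoid markers with a higher mean, and its KO samples all lay above WT. Pdgfra passed the background criterion on 0 of 3 WT arrays and on 6 of 6 KO arrays. Among myeloid and lymphoid markers, Ptprc, Itgam, Cd68, Csf1r and Cd3e passed it on 9 of 9 arrays, Adgre1 on 3 and Lyz2 on 0. The sort selected against the proteins of Pecam1 and Ly6a, which passed on 8 of 9 arrays each, and against those of Ptprc and Itgam. Over the markers that passed it on every array the endothelial median was 0.24 and the mesenchymal one 0.46. The part of other cell types in the repair genes' differences was not tested.

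The promoters of the members were read for letters that cell cycle genes often carry. RefSeq promoters (GRCm38.p6, 250 bases before to 50 after the start) were matched for 36 of 46 members. The 10 without a match were Prkdc, Xpc, Ddb2, H2afx, Fancd2, Nbn, Rad50, Rad54b, Xrcc2 and Exo1. H2afx (-1.06) and Exo1 (-1.02) had the largest differences of all members, and the medians below leave them out. The E2F core, written TTTGGCGC, TTTGCCGC, TTTCGCGC or TTTCCCGC and searched on both strands, occurred in 9 of 36 (25%), against 2.60% of 27025 genes and 3.29% of 17492 protein-coding genes. Holders were Bard1, Brca2, Chek2, Fancg, Mdc1, Msh3, Msh6, Rad51c and Xrcc6. Their median difference was -0.42, against -0.28 for the 27 matched members without it, and 3 of 12 matched cell-cycle-linked members held it. The CHR element, TTTGAA, occurred in 1 of 36 (Bard1, 2.78%) against 20.2% of genes, and CCAAT in 20 of 36 (55.6%) against 41.1%. Each window had 300 bases, and a gene with several starts had several windows (1.08 per matched member and 1.22 per gene) and counted as a holder if any held the motif. Per window, the E2F core was in 25.6% of 39 member windows and in 2.26% of all 32851.

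Stretches upstream of the start are shown for the 7 holders whose match lies wholly there, so that the match, in capitals, can be seen in its context. The Msh3 stretch holds a pair of overlapping matches on opposite strands. Each is written along its gene's strand, at chr5:150522427-150522486 (plus) for Brca2, chr1:71103148-71103207 (minus) for Bard1, chr13:92355172-92355231 (minus) for Msh3, chr4:43010320-43010379 (minus) for Fancg, chr15:82016297-82016356 (plus) for Xrcc6, chr5:110839805-110839864 (plus) for Chek2 and chr17:35841456-35841497 (plus) for Mdc1.
Brca2: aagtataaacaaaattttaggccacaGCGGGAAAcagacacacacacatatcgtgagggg
Bard1: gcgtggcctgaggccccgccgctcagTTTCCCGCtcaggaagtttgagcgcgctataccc
Msh3: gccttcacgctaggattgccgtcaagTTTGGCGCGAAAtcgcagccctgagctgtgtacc
Fancg: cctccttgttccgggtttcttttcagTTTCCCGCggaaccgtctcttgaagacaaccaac
Xrcc6: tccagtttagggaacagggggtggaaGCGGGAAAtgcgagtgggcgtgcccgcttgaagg
Chek2: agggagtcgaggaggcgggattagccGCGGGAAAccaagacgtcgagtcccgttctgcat
Mdc1: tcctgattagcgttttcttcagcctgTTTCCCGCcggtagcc
Among these 7 genes the KO minus WT difference was -0.45 for Brca2, -0.52 for Bard1, -0.25 for Msh3, -0.06 for Fancg, -0.16 for Xrcc6, -0.59 for Chek2 and -0.50 for Mdc1. Leaving out KO sample 3 gave -0.11 for Brca2, -0.16 for Bard1, -0.20 for Msh3, 0.09 for Fancg, -0.19 for Xrcc6, -0.44 for Chek2 and -0.32 for Mdc1. Only Mdc1 separated the groups. A match describes these letters and is no evidence that a factor binds there.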

How the data were processed

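Satellite cell RNA of 3 WT and 6 KO arrays was hybridised with Cy3 to 1-colour Agilent arrays. The authors deposited scanner output with spot intensity on a linear scale, and per the file headers Feature Extraction 10.7.3.1 subtracted background and fitted spatial trends. The authors also deposited a log2 table, used as an alternative, whose method the sources used here do not give. The number of arrays limits the precision.

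Here, processed signals were log2 transformed and the 75th percentile of an array's non-control spots subtracted. Outlier spots were left out, repeat spots averaged, 35 empty probe values filled with the probe's mean over other arrays, and probes kept if they were well above background on 3 or more of 9 arrays (42983 of 55681). KO arrays of one number were averaged. Groups were compared with limma 3.58.1 (R 4.3.3), lmFit and eBayes, with Benjamini-Hochberg adjustment over 28375 features at 0.05. The fit was tried on simulated data with changes larger than any member's difference. That trial cannot show whether differences of the members' size would be found. Slide was read from the scanner barcode (slide 1 holds WT samples 1 and 3 and KO arrays 2, 3 and 4). WT and KO samples with the same number were not paired, since no label says that the number pairs them. Such samples also did not deviate together (r -0.04, 0.03 and 0.01). Figures used matplotlib 3.10.9.

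Members and lists were chosen with earlier results of these data known. Named members are those whose groups do not overlap, any called, and the largest and smallest difference of each class. Named other repair genes are those called and the 3 with the smallest p in each direction. Replication and marker genes are given as counts and ranges, with any called, and some markers are also named after their values were seen.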

Additional observations from a re-analysis of the deposited data

How the results depend on the processing

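Of the 46 members, 32 kept their direction in all of the 20 alternatives run, which changed background correction, normalization, filter, probe choice, slide, array weighting and single samples. The filter settings, the 9 separate arrays, the random block without a slide term and the replicate block leave every member's difference unchanged. A direction could not turn in those alternatives. No member was called, except Msh6 (-0.42, limma adjusted p = 0.0413) when 9 arrays were counted as separate samples, as their titles name them. Doing so treats the closely matching KO arrays of one number as independent. That fit called 1 of 46 members and 3 of 88 other repair genes, against 4.23% of all features. With sample as a random block 1 of 88 other repair genes was called, against 1.92% of all features. None of these shares exceeds that of all features. The count of features called over the whole array, 40 in the report, was 295 with normexp, 248 with the authors' deposited table, 13 with no filter, 104 with probes well above background on all arrays, 1199 with 9 separate arrays, 546 with sample as a random block, 366 when a fixed slide term joined that block (an alternative chosen after seeing the data), 4 with slide as a block and 2 within slide 1. The replicate block by number called 0 features by limma (2949 at an unadjusted p under 0.05) and 0 members. Leaving out 1 sample gave 0 to 9 features, with 0 without WT sample 1 or 3, 1 without WT sample 2 or KO sample 3, 5 without KO sample 1 and 9 without KO sample 2. The cause of these moves was not tested. Within slide 2, a limma test of 1 WT sample against 3 KO samples, added after seeing the data, called 0 features (1718 at an unadjusted p under 0.05) and 0 members. It takes the lone WT sample to vary like the KO samples.

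The median of the mismatch class ran from -0.44 to -0.25 when 1 sample was left out. In at least 1 alternative 14 members changed sign. Palb2 (-0.34 in the report) was 0.12 without KO sample 3, and over the alternatives Xrcc3 reached 0.02, Fancg 0.23, Fancl 0.18, Chek1 0.20, Nbn 0.12, Xpc -0.08 and Prkdc -0.03. Ddb2 was 0.0028 with quantile normalization and 0.0493 within slide 1. Atr was 0.0185 with quantile normalization, 0.00065 in the authors' deposited table and 0.0258 within slide 2. Rad51c was 0.0193 in the authors' deposited table and 0.0783 within slide 2, Fancm 0.0174 with slide as a block and 0.112 within slide 2, and Pms2 0.0150 within slide 1. With 1 sample left out Rad51c ran from -0.116 to 0.0179, Ddb2 from -0.117 to 0.0490, Fancm from -0.267 to 0.139, Atr from -0.126 to 0.0627 and Xrcc5 from -0.0913 to 0.107. With so few samples, differences of the size seen in most members could not be told from the spread between samples.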
